A study of Mus musculus with 2 samples.

Results

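Granzyme-low NK cells are the natural killer (NK) cells of these mouse tumours that carried next to no message for granzymes C to G. They were chosen by their counts: at least 200 genes and at most 10% mitochondrial UMIs, 3 or more UMIs of Ncr1, Klrb1c and Klre1 together, at most 1 UMI of the CD3 genes Cd3d, Cd3e and Cd3g, under 10 UMIs per 10000 of 6 macrophage genes (C1qa, C1qb, C1qc, Csf1r, F13a1, Ms4a6c), and at most 5 UMIs per 10000 of Gzmc, Gzmd, Gzme, Gzmf and Gzmg together. A UMI, or unique molecular identifier, counts 1 captured mRNA molecule. The rule found 805 such barcodes among 4099 NK barcodes and 36259 barcodes that passed the quality limits, out of 37198 deposited: 340 in the Ythdf2 KO library and 465 in the WT library. The other 3294 NK barcodes, with more of these granzymes, are called granzyme-rich here, 1159 in the Ythdf2 KO library and 2135 in the WT library.

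The series sequenced CD45+ leukocytes sorted from C57BL/6 mouse tumours on the 10x Genomics droplet platform, with 1 library per genotype, and its title concerns the role of the m6A reader YTHDF2 within tumour cells. The sample labels speak of a Ythdf2-KO tumour, set against a WT tumour, whereas the design text speaks of conditional knockout mice, so the cells that lost the gene, the driver of any Cre, the tumour line, the age of the mice and the number of animals pooled are not given in the sources used here. Every value below comes from 1 library per genotype. No difference between genotypes therefore has a replicate check, and each interval (95%, exact) covers counting error only.

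NK cells are innate lymphocytes that kill stressed or transformed cells with perforin and granzymes and that release interferon gamma and chemokines. In the mouse they are told apart from T cells by natural cytotoxicity receptors, NK1.1 and the Ly49 receptors (Klra genes) in the absence of CD3, and CD49b (Itga2) marks conventional NK cells, whereas CD49a (Itga1) marks tissue-resident innate lymphocytes of the ILC1 kind. Granzymes A and B are found in most mouse NK cells, while the genes of granzymes C to G, which stand side by side on chromosome 14, come on mainly after strong or lasting activation. YTHDF2 binds the methylated adenosine m6A in mRNA and speeds the decay of the messages it binds.

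The label of the cells fitted their markers. Ncr1 (the receptor NKp46) averaged 377 UMIs per 1000000 UMIs (CPM) in granzyme-low NK cells of the Ythdf2 KO library and 319 in those of the WT library, and Klrb1c (NK1.1) averaged 299.6 and 252. Both genes took part in the choice. Of the markers that did not, the Ly49 receptor Klra4 reached 226 CPM in the Ythdf2 KO library and 206 in the WT library, Klra8 (Ly49H) 103 and 95.2, and Itga2 49.8 and 36.7. In monocyte/macrophage barcodes the same 3 genes lay between 0.316 and 1.55 CPM in both libraries, and in B cells at no more than 2.75. The Klra genes are close copies of one another, so their UMIs may be shared out imperfectly, and all 11 Klra genes together stood at 1184 CPM in the Ythdf2 KO library and 1032 in the WT library.

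Markers of other cells were looked for in the same barcodes. Itga1 stood at 7.33 CPM in the Ythdf2 KO library and 13.1 in the WT library, below its level of 21.4 and 22.0 in monocyte/macrophage barcodes. The 10 listed ILC1 genes, Itga1 among them, summed to 183 and 160 CPM. Their sum was 162 and 177 in granzyme-rich NK cells and 490 and 514 in monocyte/macrophage barcodes. The 10 T cell genes summed to 1072 and 949 CPM, most of it the constant segments Trbc1 and Trbc2, which NK cells can transcribe without a rearranged receptor. Cd4, Cd8a, Cd8b1, Cd5 and Cd6 were each under 3 CPM in both libraries. The 7 monocyte/macrophage markers summed to 953 and 1177 CPM, against 10228 and 12231 in monocyte/macrophage barcodes themselves, and the 5 neutrophil markers to 1532 and 1117, beside 3649.8 and 421 in B cells. Most of the neutrophil sum came from the barcodes of 3 sub-clusters described below.

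Granzyme-low NK cells were shallower than granzyme-rich ones. Their median depth was 4339 UMIs and 1546 genes in the Ythdf2 KO library and 5696 UMIs and 1812 genes in the WT library, while granzyme-rich cells had medians of 12805 and 13375 UMIs, monocyte/macrophage barcodes 5780 and 4971 and B cells 2044.5 and 2206.5. Thinned to 2000 UMIs each, granzyme-low cells showed a median of 931.5 genes (Ythdf2 KO) and 929 genes (WT), against 884 and 896 in granzyme-rich cells. The requirement of 3 NK gene UMIs weighs more on a shallow barcode, so levels of Ncr1, Klrb1c and Klre1 are given as description only. The libraries had 101 barcode sequences in common. No sequence was a granzyme-low NK cell in both libraries, and 4 cells of the Ythdf2 KO library and 3 of the WT library had a sequence present in the other.

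Ythdf2 itself (chromosome 4, 132184912 to 132212303, minus strand, GRCm38) was read at 44.5 CPM in granzyme-low NK cells of the Ythdf2 KO library and at 51.3 in those of the WT library, a ratio of 0.868 (0.661 to 1.13). In granzyme-rich NK cells the ratio was 0.959 (0.881 to 1.04). A tag outside a deleted stretch is still read, so this does not check the label, and the Ythdf2 KO library below is the library with that label.

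The granzymes that chose the cells are described first. Their sum stood at 1.36 UMIs per 10000 in granzyme-low cells of the Ythdf2 KO library and 1.92 in those of the WT library, against 314 and 250 in granzyme-rich cells. Monocyte/macrophage barcodes held 1.73 and 2.64 per 10000 and B cells 2.05 and 5.01, with no granzyme limit applied to them. No UMI of the 5 genes was present in 173 of the 340 Ythdf2 KO cells (50.9%) and in 148 of the 465 WT cells (31.8%). The higher level in other cells of the WT library moves with this difference. So does depth, since 44.4% of the Ythdf2 KO cells and 32.7% of the WT cells had fewer than 4000 UMIs. The part of either was not tested.

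The cut did not fall in an empty range. Between 4 and 5 UMIs per 10000, just inside the limit, lay 21 Ythdf2 KO cells and 54 WT cells, and between 5 and 6, just outside it, 16 and 47. The highest value inside was 4.97 in the Ythdf2 KO library and 4.94 in the WT library, and the lowest outside 5.19 and 5.04. At the other end, 50.6% of Ythdf2 KO NK cells and 47.9% of WT NK cells held more than 100 per 10000.

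**Figure D1:**
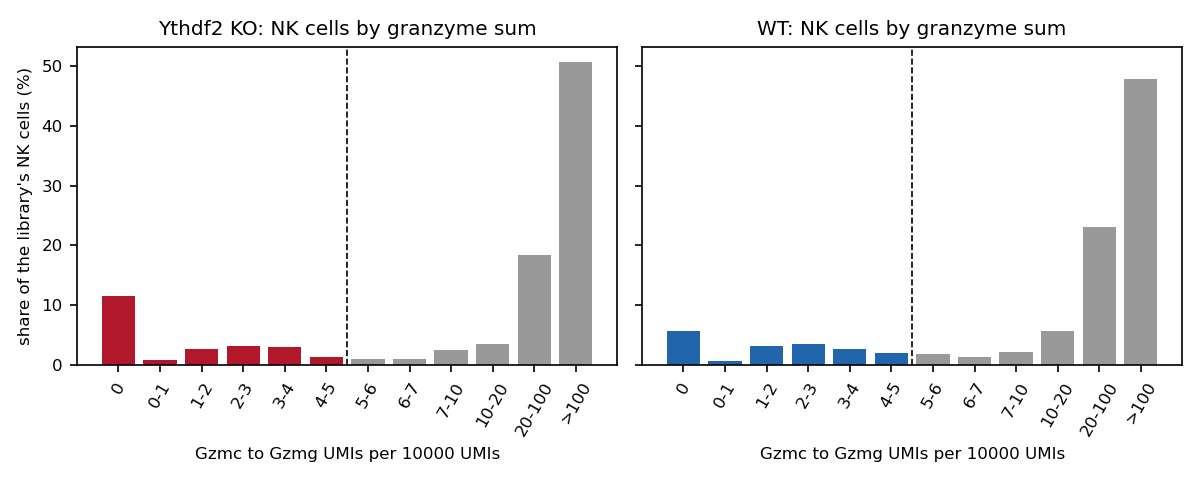
Share of each library's NK cells (vertical axis, percent) by the sum of Gzmc to Gzmg UMIs per 10000 (horizontal axis, bins of unequal width), with the Ythdf2 KO library on the left and the WT library on the right; coloured bars left of the dashed line at 5 are the granzyme-low cells. Cells with no such UMI made up 11.5% of Ythdf2 KO NK cells and 5.69% of WT NK cells, and the largest bar in both libraries lies above 100.

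As a share of all barcodes the granzyme-low NK cells had overlapping intervals in the libraries, and as a share of NK cells they were more frequent in the Ythdf2 KO library at full depth. They formed 2.15% (1.93% to 2.38%) of kept barcodes in the Ythdf2 KO library and 2.28% (2.08% to 2.49%) in the WT library. Among NK cells they formed 22.7% (20.6% to 24.9%) and 17.9% (16.4% to 19.4%), while all NK cells made up 9.46% and 12.7% of kept barcodes. With NK barcodes thinned to 4000 UMIs, shallower ones left out and the granzyme limit applied afterwards, the shares were 15.7% (13.7% to 17.8%) of 1296 NK cells in the Ythdf2 KO library and 14.5% (13.1% to 16.0%) of 2324 in the WT library, and their intervals overlapped. The CD45 sort sets these shares together with the biology, and fewer granzyme-rich cells cannot be told apart from more granzyme-low ones.

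The granzyme genes of the rule lie in a block of related serine protease genes on chromosome 14 (GRCm38). These and the other genes of the block named here are all on the minus strand. Ctsg, Mcpt8 and Gzmn, 3 genes of that block that the rule did not use, were also nearly absent from granzyme-low cells. Gzmb, at the end of the block, was not. Ctsg, which encodes cathepsin G (56099881 to 56102574), had 0 UMIs in granzyme-low cells of the Ythdf2 KO library and 10 in those of the WT library, or 0 and 2.98 CPM, whereas granzyme-rich cells held 96.1 and 44.6 CPM. All 10 lay in 1 barcode. Mcpt8, a mast cell protease gene just before it (56082166 to 56085273), stood at 1.05 and 1.19 CPM in granzyme-low cells and at 47.9 and 31.7 in granzyme-rich cells. Gzmn, between Gzmg and Gzmf (56165797 to 56174599), had 1 and 0 UMIs in granzyme-low cells, against 5.28 and 2.72 CPM in granzyme-rich cells. It was thus scarce in both classes, and the intervals of its ratios reached up to 0.567 and 0.414. Ctsg and Mcpt8 also mark granulocytes and mast cells or basophils, and both lay at or below 1.05 CPM in monocyte/macrophage barcodes.

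Gzmb (56258838 to 56262260), whose start lies beyond Gzmc (56231441 to 56234656), was read at 5114 CPM in granzyme-low cells of the Ythdf2 KO library and 5803 in those of the WT library, against 4669.8 and 5290.1 in granzyme-rich cells, a ratio of 1.10 in both. Cma1, a chymase gene at the other end (55941451 to 55944675), was higher in granzyme-low cells, at 24.1 and 9.25 CPM against 1.66 and 2.49 in granzyme-rich cells. That is a ratio of 14.5 (8.88 to 24.1) in the Ythdf2 KO library and 3.71 (2.37 to 5.70) in the WT library, from 46 and 31 UMIs in granzyme-low cells. Granzymes C to G are near copies of one another, so single values within that group are uncertain.

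**Figure D2:**
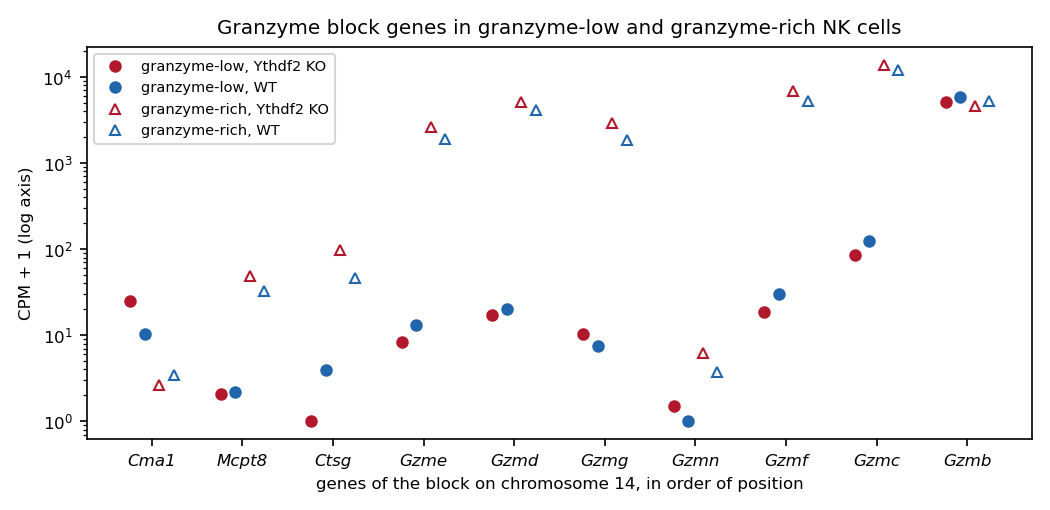
CPM plus 1 (vertical log axis) of 10 protease genes of the chromosome 14 block in order of position, with granzyme-low NK cells as filled circles and granzyme-rich NK cells as open triangles, Ythdf2 KO in red and WT in blue. From Mcpt8 to Gzmc the circles lie below the triangles, Cma1 shows the reverse order, and all 4 points of Gzmb lie together.

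The comparison of granzyme-low with granzyme-rich NK cells asks what else goes with the missing granzymes, within each library. Ccl5, Ccl3, Ccl4, Cxcr4 and Klf2 were all more than 3-fold higher in granzyme-low cells of both libraries, and Ifng was more than 2-fold higher. Klrg1, Itga1, Havcr2, Spp1 and the metallothioneins Mt1 and Mt2 were lower. The genes of the main killing proteins, Gzma, Gzmb and Prf1, differed by less than 1.5-fold in CPM. Of 3879 genes with at least 30 CPM, 76 (1.96%) were at least 2-fold higher in both libraries and 23 (0.593%) at least 2-fold lower. Over all these genes the median log2 ratio was 0.13 in the Ythdf2 KO library and 0.07 in the WT library. The share of all genes higher or lower in both libraries without a fold limit is not given here. Such counts within the lists below therefore have only these medians beside them. Scaling by trimmed mean of M-values (TMM) would lower each log2 ratio by 0.22 and 0.11, which would bring the Gzmb ratio of the Ythdf2 KO library below 1. The Prf1 ratio of that library would then be 0.599, past 1.5-fold lower. Over all settings tried, the Gzma ratio of that library lay between 1.15 and 1.60.

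Ccl5, a chemokine that draws T cells, monocytes and dendritic cells (chromosome 11, 83525778 to 83530518, minus strand), led the 12 genes with the highest mean ratio over the libraries. It was read at 6208 CPM in granzyme-low cells of the Ythdf2 KO library against 347 in its granzyme-rich cells, and at 2742 against 306 in the WT library, ratios of 17.9 (17.3 to 18.5) and 8.97 (8.72 to 9.24). With every cell thinned to 2000 UMIs, 74.4% of granzyme-low cells of the Ythdf2 KO library and 63.9% of those of the WT library held a Ccl5 UMI, against 15.1% and 15.9% of granzyme-rich cells. Monocyte/macrophage barcodes gave 20.5% and 25.2% and B cells 7.01% and 14.7%, so the share in granzyme-rich cells lay below that in monocyte/macrophage barcodes. Without thinning, 83.5% and 79.4% of granzyme-low cells held a Ccl5 UMI. Thinning left out 12 and 11 granzyme-low cells with fewer than 2000 UMIs, and 11 and 23 granzyme-rich ones, in the Ythdf2 KO and WT libraries.

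The neighbouring genes Ccl3 and Ccl4, inflammatory chemokines whose genes lie 83647844 to 83649355 and 83662584 to 83664683 on the same chromosome, went the same way. Ccl4 stood at 3164 CPM in granzyme-low cells against 449.7 in granzyme-rich cells of the Ythdf2 KO library, and at 1689 against 287 in the WT library. Ccl3 had ratios of 9.19 and 5.46. Ifng, the gene of interferon gamma, was read at 463 against 96.4 in the Ythdf2 KO library and at 240.2 against 91.0 in the WT library, ratios of 4.80 (4.42 to 5.21) and 2.64 (2.44 to 2.86). Monocyte/macrophage barcodes held no more than 3.92 CPM of Ifng, but 2753 and 2153 of Ccl4 and 631 and 454 of Ccl3 (Ythdf2 KO and WT). Those WT values of Ccl4 and Ccl3 lay above the 1689 and 305 CPM of WT granzyme-low cells. The part of RNA from such cells in the ratios was not tested. The chemokine Xcl1, which attracts cross-presenting dendritic cells, had ratios of 2.09 and 2.41. Of the 9 cytokine and chemokine genes read at 10 CPM or more, 5 were at least 2-fold higher in both libraries and none lower, with a median log2 ratio of 1.06 in the Ythdf2 KO library and 1.27 in the WT library.

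Of 5 genes of chemokine receptors and egress at 10 CPM or more, 2 were at least 2-fold higher in granzyme-low cells of both libraries and none lower, with median log2 ratios of 0.64 in the Ythdf2 KO library and 1.39 in the WT library. Cxcr4, the receptor of CXCL12, was read at 183 CPM in granzyme-low cells against 29.1 in granzyme-rich cells of the Ythdf2 KO library, and at 161 against 32.8 in the WT library. Klf2, a transcription factor of quiescent and recirculating lymphocytes, had ratios of 3.72 and 3.27. S1pr1, S1pr5 and Cxcr3 were also higher but were scarce, at no more than 13.6 CPM. Cxcr4 stood at 169 and 188 CPM in monocyte/macrophage barcodes and 475 and 457 in B cells of the Ythdf2 KO and WT libraries. Klf2 stood at 1078 and 979 in monocyte/macrophage barcodes and 2691 and 2342 in B cells, against 840 and 638 in granzyme-low cells. The part of RNA from such cells in the ratios was not tested.

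Receptors by which NK cells are typed were mostly higher in granzyme-low cells. Itga2 had ratios of 6.50 and 4.30, Klra4 3.51 and 2.76, and Klra8 3.86 and 2.62 in the Ythdf2 KO and WT libraries. Of 12 activating receptor genes at 10 CPM or more, 4 were at least 2-fold higher in both libraries and none lower, Klrb1a and Klra4 among them. The inhibitory receptors split. Of 12, the Ly49 genes Klra3 and Klra9 were at least 2-fold higher, while Klrg1, a receptor of late activation, Havcr2 (TIM-3), a checkpoint receptor, and Klra5 were lower. Klrg1 was read at 18.9 CPM in granzyme-low cells against 121 in granzyme-rich cells of the Ythdf2 KO library, and at 17.6 against 117 in the WT library, a ratio of 0.156 (0.109 to 0.217) and 0.150 (0.114 to 0.194).

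The markers of early and late NK cell stages each held genes that went either way. Of 7 early genes 5 were higher in granzyme-low cells of both libraries, 3 of them past 2-fold, and 2 were lower, 1 past 2-fold. Their median log2 ratios were 0.99 (Ythdf2 KO) and 1.17 (WT). Of 4 late genes at 10 CPM or more 2 were at least 2-fold higher in both libraries and 1 lower, with medians of 0.62 and 0.50. Among genes of early NK cells, Cd27 (2.65 and 2.37), Tcf7 (2.58 and 2.28) and Cd7 (5.70 and 4.70) had higher levels in granzyme-low cells in the Ythdf2 KO and WT libraries, whereas Kit had ratios of 0.455 and 0.472. Among genes of late NK cells, Zeb2 (2.13 and 2.14) and Itgam (2.16 and 2.53) were higher and Klrg1 lower. Zeb2 and Itgam are macrophage genes as well, and Itgam stood at 173 CPM in the sub-cluster of granzyme-low cells with monocyte and macrophage genes described below, against 35.4 in the other granzyme-low cells. With barcodes holding 10 or more UMIs per 10000 of monocyte, neutrophil and dendritic cell genes left out of both classes, Itgam had ratios of 5.08 and 2.53 and Zeb2 3.10 and 2.43. Without sub-clusters 3, 6 and 7, which were formed among granzyme-low cells alone, Itgam stood at 43.9 and 21.9 CPM in granzyme-low cells, against 33.8 and 26.7 in all granzyme-rich cells, and Zeb2 at 106 and 98.2, against 91.5 and 81.4. Eomes, the transcription factor of conventional NK cells, had ratios of 1.61 and 1.29, and Tbx21 (T-bet) 1.45 and 1.47. Itga1, the residency integrin, had ratios of 0.181 (0.0986 to 0.306) and 0.207 (0.150 to 0.279). The ILC1 list to which Itga1 belongs did not follow it. Of its 8 genes at 10 CPM or more, 5 were higher in granzyme-low cells of both libraries and 2 lower. The 2 lower ones passed 2-fold and none of the higher ones did, with median log2 ratios of 0.51 (Ythdf2 KO) and 0.23 (WT).

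The list of cytokine receptors had 16 genes at 10 CPM or more. Of these, 3 were at least 2-fold higher in granzyme-low cells of both libraries and 1 at least 2-fold lower. In both libraries 11 were higher and 4 lower, with median log2 ratios of 0.69 (Ythdf2 KO) and 0.36 (WT). Il12rb2 and Il18r1, subunits of the IL-12 and IL-18 receptors, had ratios of 3.07 and 2.71 in the Ythdf2 KO library and 2.94 and 2.30 in the WT library, and Ifngr1, the interferon gamma receptor, 2.56 and 2.08. All 12 immediate early genes, such as Fos, Jun and Nr4a1, which come on within minutes of a stimulus and also during tissue digestion, had higher levels in granzyme-low cells of both libraries, with median log2 ratios of 1.04 and 0.78. Only Nr4a1, at 4.12 and 2.74, was past 2-fold in both. All 14 type I interferon response genes were higher as well, at medians of 0.89 and 0.66, with none past 2-fold in both libraries.

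Gzma was read at 9523 CPM in granzyme-low cells against 7153 in granzyme-rich cells of the Ythdf2 KO library, and at 8688 against 7496 in the WT library. At 2000 UMIs, 90.2% and 92.7% of granzyme-low cells held a Gzma UMI, against 8.24% and 15.7% of monocyte/macrophage barcodes. Prf1, or perforin, had ratios of 0.697 and 0.856. Fasl, a death ligand gene, stood at 135 CPM in granzyme-low cells against 45.4 in granzyme-rich cells of the Ythdf2 KO library and at 80.0 against 49.2 in the WT library, ratios of 2.97 and 1.63. Of 14 genes of granules and death ligands none was past 2-fold in both libraries in either direction. Of 15 glycolysis genes 10 were lower in both libraries, with Pgk1 at 0.626 and 0.743 and median log2 ratios of -0.47 (Ythdf2 KO) and -0.27 (WT). Of 17 cell cycle genes 12 were lower, at medians of -0.25 and -0.39. No gene of either list was past 2-fold in both libraries.

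The genes lowest in granzyme-low cells beside those named held to no single list. Spp1, or osteopontin, was read at 977 CPM against 4212 in granzyme-rich cells of the Ythdf2 KO library, and at 801 against 4237 in the WT library. Mt1 and Mt2, which bind zinc and copper, had ratios of 0.269 and 0.180 in the Ythdf2 KO library and 0.181 and 0.0970 in the WT library. Gadd45g, a stress and differentiation gene, had ratios of 0.210 and 0.154. Myo10, Tmsb15a, Cd55 and Gpr141 were between 0.117 and 0.326 in both libraries. Among the highest were also Nfkbiz, an inducible regulator of NF-kB target genes, at 5.25 and 3.45, and Sla, Sult2b1 and Tagap at 2.64 to 4.72.

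Depth and genes of other lineages differed between the classes. The monocyte/macrophage markers summed to 953 and 1177 CPM in granzyme-low cells of the Ythdf2 KO and WT libraries, against 765 and 665 in granzyme-rich cells, and the neutrophil markers to 1532 and 1117, against 626 and 271; their part in the ratios was not tested beyond leaving such barcodes out. Among barcodes of 4000 to 10000 UMIs (149 granzyme-low and 337 granzyme-rich cells in the Ythdf2 KO library, 211 and 543 in the WT library), an alternative added after the data were seen, Ccl5 had ratios of 16.4 and 11.7 and Klrg1 0.173 and 0.246 in the Ythdf2 KO and WT libraries. Other ratios lay nearer to 1 there, with Ccl3 at 3.76 and 5.09, Ifng at 2.57 and 2.15, Klf2 at 2.45 and 2.89, Cd7 at 2.49 and 2.72, and Itga2 at 6.06 and 2.45. Tcf7 (1.65 and 1.79) was under 2-fold in both libraries, Klra4 (1.94 and 2.28) in the Ythdf2 KO library and Klra8 (3.16 and 1.94) in the WT library, while Havcr2 (0.419 and 0.597) and Cd55 (0.622 and 0.333) were each short of 2-fold lower in 1 library. The ratio of Mmp12, a macrophage metalloelastase gene that met the naming rule at 1.80 and 11.2, turned to 0.746 and 0.502 once NK barcodes with 10 or more UMIs per 10000 of monocyte, neutrophil and dendritic cell genes were left out, and 83.0% of its WT UMIs came from 1 barcode.

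**Figure D3:**
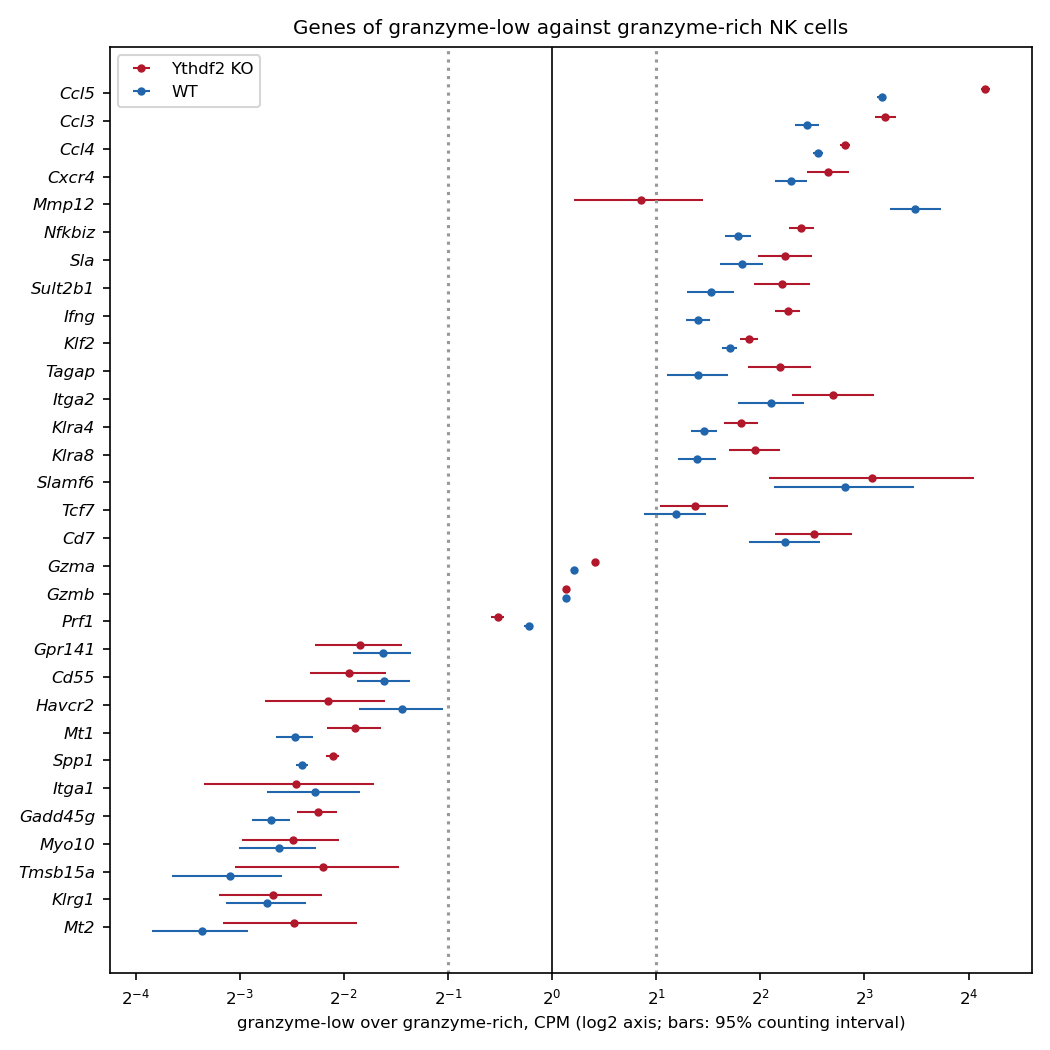
Ratio of CPM in granzyme-low over granzyme-rich NK cells (horizontal log2 axis, bars are 95% counting intervals) for named and marker genes, with the Ythdf2 KO library in red above the WT library in blue in each row; dotted lines mark 2-fold. Ccl5 lies farthest to the right in the Ythdf2 KO library, at 17.9, Gzma, Gzmb and Prf1 lie near the line at 1, and Mmp12 is the gene on which the libraries differ most.

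The granzyme-low NK cells were not uniform. Clustered on 1500 variable genes without the granzymes of the rule, they fell into 7 sub-clusters. Sub-cluster 1 (322 cells) was led by Thy1, Rgs16 and Nolc1. Sub-cluster 2 (198 cells) was led by Ccl5, Pde2a, Itga2, Nr4a1, Cd7 and Cxcr4 and was the shallowest, with a median of 3010.5 UMIs. Sub-cluster 4 (104 cells) was interferon-stimulated-like, with Usp18, Herc6, Slfn8, Ifng and Cxcl10 in front. Its type I interferon genes summed to 5914 CPM, against 2669 in the other granzyme-low cells pooled. The sum was also high in sub-clusters 6 (5724 CPM) and 3 (4753 CPM), described below. Sub-cluster 5 (33 cells) was cycling-like, with Mki67, Birc5, Pclaf and histone genes in front.

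The other 3 sub-clusters carried genes of a second lineage and stay unnamed. Sub-cluster 3 (111 cells) was led by Chil3, Ccl2, Lyz2 and Apoe, genes of monocytes and macrophages, with a median of 9645 UMIs. Sub-cluster 6 (21 cells) was led by S100a9, Retnlg and S100a8, genes of neutrophils. Sub-cluster 7 (16 cells) was led by Fscn1, Tbc1d4 and Ccr7, genes of mature dendritic cells. Scrublet, a doublet caller set to mark the 8% highest scores of each library, marked 38.7%, 47.6% and 18.8% of these 3 and none of sub-clusters 1, 2, 4 and 5. The NK markers were present there as well: Ncr1 was found in 81.1% of cells of sub-cluster 3, 81.0% of sub-cluster 6 and 87.5% of sub-cluster 7. Together the 3 held 52 of the 340 Ythdf2 KO cells (15.3%) and 96 of the 465 WT cells (20.6%).

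The NK markers varied across the other sub-clusters. Klra4 was found at 353 CPM in sub-cluster 2, 276 in sub-cluster 4, 236 in sub-cluster 1 and 179 in sub-cluster 5, and the granule genes Gzma and Prf1 were found in at least 84.6% of the cells of each. Sub-cluster sizes between libraries are not compared on this clustering, since Ccl5, Ifng and Cxcl10, which lead it, differed between the libraries. Clustered again without the genes that differed by 1.5-fold, an alternative added after the data were seen, the cells formed 8 groups. The group that shared 162 of its 178 cells with sub-cluster 2 held 28.8% (24.1% to 34.0%) of Ythdf2 KO cells and 17.2% (13.9% to 20.9%) of WT cells. The group that shared 283 of its 314 cells with sub-cluster 1 held 34.4% (29.4% to 39.7%) and 42.4% (37.8% to 47.0%).

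The comparison of genotypes asks how granzyme-low NK cells of the Ythdf2 KO library differed from those of the WT library. Ccl5 was 2.26-fold higher in the Ythdf2 KO library, Ccl3 2.82-fold, Ccl4 1.87-fold, Ifng 1.93-fold and the death ligand gene Fasl 1.68-fold, while Gzma, Gzmb, Prf1 and Xcl1 did not pass 1.5-fold. Among barcodes of 4000 to 10000 UMIs the ratios were 1.68 for Ccl5, 1.16 for Ccl3, 1.17 for Ccl4, 1.34 for Ifng and 1.77 for Fasl, so that Ccl3, Ccl4 and Ifng no longer passed 1.5-fold at like depth. The NF-kB regulators Nfkbia and Nfkbiz and the growth regulator Myc were about as much higher, and the chaperone genes Hspa1a and Hspa1b were lower. Of 3970 genes at 30 CPM or more, 99 (2.49%) were at least 1.5-fold higher and 53 (1.34%) at least 1.5-fold lower, with a median log2 ratio of 0.04 over all of them. In granzyme-rich NK cells, whose sums hold several times more UMIs, 21 of 3758 genes (0.559%) were that much higher and 14 (0.373%) that much lower.

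Ccl5 was read at 6208 CPM (11851 UMIs) in granzyme-low cells of the Ythdf2 KO library and at 2742 (9192 UMIs) in those of the WT library, a ratio of 2.26 (2.20 to 2.33). In granzyme-rich cells the ratio was 1.14 (1.10 to 1.17), and in monocyte/macrophage barcodes 0.843 (0.829 to 0.858). The Ccl5 UMIs were spread over 284 Ythdf2 KO cells and 369 WT cells, and the cell with the most held 2.45% and 2.35% of them. Ccl4 stood at 3164 and 1689 CPM, a ratio of 1.87 (1.81 to 1.94), beside 1.57 in granzyme-rich cells and 1.28 in monocyte/macrophage barcodes. Ccl3 stood at 862 and 305 CPM, and 23.4% of its Ythdf2 KO UMIs lay in 1 barcode. Without the cell with most UMIs in each library the Ccl3 ratio was 2.30 (2.11 to 2.50).

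Ifng stood at 463 CPM in the Ythdf2 KO library and 240.2 in the WT library, a ratio of 1.93 (1.75 to 2.12), against 1.06 (0.996 to 1.13) in granzyme-rich cells. At 2000 UMIs a cell, 41.5% (36.1% to 47.0%) of Ythdf2 KO and 29.7% (25.6% to 34.2%) of WT granzyme-low cells held an Ifng UMI, against 0.558% and 0.548% of monocyte/macrophage barcodes. Without thinning the shares were 61.5% and 51.0%. Of the 9 cytokine and chemokine genes, 5 were past 1.5-fold higher and none lower, with a median log2 ratio of 0.69. The fifth was Ltb, the gene of lymphotoxin beta, at 98.5 and 61.2 CPM. Xcl1 was even, at 729 and 715.

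Ccr2, the receptor of CCL2, stood at 277 CPM in the Ythdf2 KO library and 169 in the WT library, a ratio of 1.64 (1.45 to 1.85), beside 1.53 in granzyme-rich cells. Nfkbiz had a ratio of 2.14 (1.94 to 2.36), beside 1.41 in granzyme-rich cells and 1.23 in monocyte/macrophage barcodes. Nfkbia, which encodes the inhibitor that NF-kB itself induces, had 2.15 (2.01 to 2.29), beside 1.40 and 1.12. Myc stood at 93.2 and 44.5 CPM, a ratio of 2.10 (1.68 to 2.63), beside 1.17 in granzyme-rich cells.

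Among the receptor lists the genotypes differed by less than 1.5-fold over all granzyme-low cells. None of 13 activating receptor genes, 11 adaptor genes and 11 inhibitory receptor genes was past 1.5-fold in either direction, with median log2 ratios of 0.31, 0.16 and -0.07. Klra4 had a ratio of 1.10 (0.970 to 1.24), Klra8 1.08 (0.903 to 1.30) and Itga2 1.36 (1.03 to 1.79). Of 14 granule and death ligand genes only Fasl, which triggers killing through the receptor Fas, was past 1.5-fold, at 135 CPM in the Ythdf2 KO library and 80.0 in the WT library. Gzma stood at 9523 and 8688, Gzmb at 5114 and 5803, and Prf1 at 1122 and 1285. Of 7 genes of early NK cells, Tcf7 (1.54), Cd7 (1.64) and Ltb (1.61) were past 1.5-fold higher. Of 5 genes of late NK cells, Cma1 was past 1.5-fold higher, at 24.1 CPM in the Ythdf2 KO library and 9.25 in the WT library. No gene of either list was past 1.5-fold lower, and the median log2 ratios were 0.32 (early) and 0.12 (late).

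The inducible chaperone genes stood lower in the Ythdf2 KO library. The near-identical genes Hspa1a and Hspa1b, which encode HSP70 chaperones, together stood at 215 CPM in the Ythdf2 KO library and 423 in the WT library, a ratio of 0.509 (0.455 to 0.568). The same sum had ratios of 0.663 in granzyme-rich NK cells, 0.363 in B cells and 0.665 in monocyte/macrophage barcodes, so it was below 1 in every class examined. Of 10 heat shock genes these 2 were past 1.5-fold lower and none higher, with a median log2 ratio of -0.35. Of 17 cell cycle genes 5 were past 1.5-fold lower, Stmn1, Tyms, Mcm5, Birc5 and Rrm2, and Ube2c and Ccnb1 were 2.26-fold and 2.70-fold higher. A single Ythdf2 KO cell held 56.0% of the library's Ube2c UMIs, 75 of 134, and a single cell 28 of its 40 Ccnb1 UMIs. Without the cell with most UMIs in each library the ratios were 1.15 (0.814 to 1.62) for Ube2c and 0.958 (0.432 to 2.02) for Ccnb1. Stmn1, Tyms, Birc5 and Rrm2 turned to ratios above 1 among barcodes of 4000 to 10000 UMIs. None of 9 genes of the m6A machinery was past 1.5-fold, with a median log2 ratio of 0.06. Of 14 type I interferon genes only Ifit1 was past the fold, at 234 and 139 CPM.

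**Figure D4:**
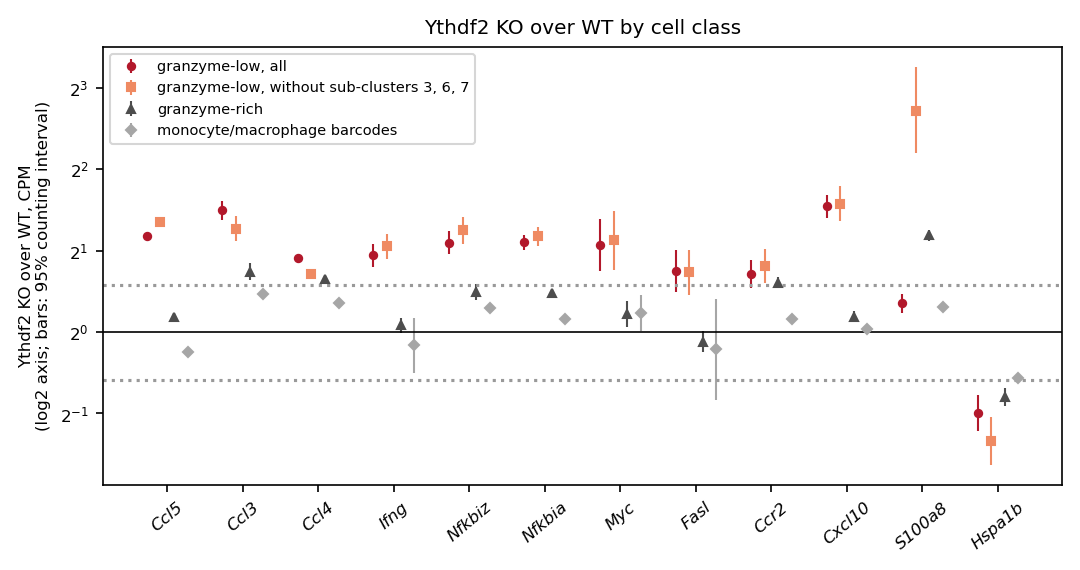
Ratio of CPM, Ythdf2 KO over WT (vertical log2 axis, bars are 95% counting intervals), for selected genes in granzyme-low NK cells, in those without sub-clusters 3, 6 and 7, in granzyme-rich NK cells and in monocyte/macrophage barcodes; dotted lines mark 1.5-fold. For Ccl5, Ifng and Myc both granzyme-low points lie near or above 2 and the other classes near 1, while Hspa1b lies below 1 in all 4.

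The genes with the most extreme ratios included genes of other cells, held by few barcodes. The 10 lowest ratios belonged to Saa3, Mmp12, Apoe, Hmox1, Hist1h3c, Lcn2, Ccr7, Hist1h2ae, Bnip3 and Clspn. Saa3, an acute phase gene, had 6 UMIs in the Ythdf2 KO library and 341 in the WT library, 88.3% of the WT ones in 1 barcode. Apoe, the macrophage apolipoprotein gene, stood at 33.0 and 177 CPM, a ratio of 0.187 (0.142 to 0.243), while monocyte/macrophage barcodes held 1050 and 2816. Without sub-clusters 3, 6 and 7 the Apoe ratio was 0.539. Ccr7, Hmox1 and Mmp12, at 0.383, 0.192 and 0.161 in all cells, had ratios of 2.13 (0.864 to 5.44), 1.34 (0.492 to 3.56) and 2.74 (0.532 to 17.6) without those sub-clusters, from 13, 9 and 5 UMIs in the Ythdf2 KO library and 10, 11 and 3 in the WT library, and all 3 intervals hold 1.

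The 10 highest were Col3a1, Iigp1, G0s2, Cxcl10, Ccl3, Hdc, Cxcl3, Cxcl9, Timp2 and Acod1. Without sub-clusters 3, 6 and 7 the ratio was 0.106 for Cxcl9 and 0.794 for Timp2, without the highest Scrublet scores 0.560 for G0s2 and 0.924 for Cxcl3, and with genes of other lineages under 10 per 10000 it was 0.385 for Acod1. Col3a1, a collagen gene of stromal cells, had 145 UMIs in the Ythdf2 KO library and 0 in the WT library, 144 of them in 1 barcode. Iigp1, an interferon-induced GTPase gene, had 61.3% of its Ythdf2 KO UMIs in 1 barcode, and G0s2 55.3%. Cxcl10, the interferon-induced ligand of CXCR3, was spread over 94 Ythdf2 KO and 125 WT cells at 532 and 182 CPM. Its ratio of 2.92 (2.64 to 3.23) was 2.36 without the cell with most UMIs in each library and 2.98 without sub-clusters 3, 6 and 7. Of the 99 genes past 1.5-fold higher, 65 stayed past it without the cell with most UMIs in each library, as did 52 of the 53 lower ones.

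Left without sub-clusters 3, 6 and 7, the 288 Ythdf2 KO and 369 WT cells were compared again. This alternative was added after the data were seen. Of 3784 genes 117 were then past 1.5-fold higher, 55 of them among the 99, and 69 lower, 34 of them among the 53. Ccl5 stood at 7490 CPM in the Ythdf2 KO library and 2933 in the WT library, a ratio of 2.55 (2.48 to 2.63). Ccl3 had 2.41, Nfkbiz 2.38, Nfkbia 2.26, Myc 2.18, Ifng 2.08, Ccr2 1.75, Fasl 1.66 and Ccl4 1.64. Cdkn1b, the cell cycle inhibitor p27, stood at 82.0 and 35.3 CPM, a ratio of 2.33 (1.73 to 3.14).

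Genes of other cells differed between the remaining cells of the libraries. The part of free RNA in the ratios that remained was not tested. S100a8 and S100a9, neutrophil genes, were together at 255 CPM in the remaining Ythdf2 KO cells and 37.9 in the remaining WT cells, a ratio of 6.72 (5.29 to 8.62). In B cells, which do not make them, the same sum stood at 3413 and 396, a ratio of 8.61. B cells were chosen without a limit on neutrophil genes. The ratio of this sum was 2.37 in granzyme-rich NK cells and 1.26 in monocyte/macrophage barcodes. Hspa1b was read at 87.2 CPM in the remaining Ythdf2 KO cells and 220.0 in the remaining WT cells, a ratio of 0.396 (0.322 to 0.485), and Hspa1a with Hspa1b together kept a ratio of 0.502. The class II genes H2-Ab1 and H2-Eb1 had ratios of 0.378 and 0.414, at no more than 62.0 CPM.

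Within sub-clusters 1, 2 and 4 the levels of Ccl5 and Ccl3 were again higher in the Ythdf2 KO library. This is a description, since these genes helped to build the clusters. Ccl5 stood at 1434 CPM in Ythdf2 KO cells and 894 in WT cells of sub-cluster 1, at 17528 and 11930 in sub-cluster 2, and at 14117 and 7535 in sub-cluster 4. Those are ratios of 1.61 (1.47 to 1.75), 1.47 (1.41 to 1.53) and 1.87 (1.77 to 1.99), each below the ratio over all cells. Ifng had ratios of 1.12 (0.912 to 1.38) in sub-cluster 1, 2.11 (1.69 to 2.67) in sub-cluster 2 and 2.98 (2.45 to 3.64) in sub-cluster 4. Ccl3 had ratios of 2.48, 1.45 and 1.43, and Ccr2 of 1.66, 1.89 and 1.80. Ccl4 had smaller ratios of 1.24 (1.15 to 1.34) in sub-cluster 1 and 1.16 (1.08 to 1.24) in sub-cluster 2, against 1.87 over all cells. Xcl1, even over all cells, was lower in the Ythdf2 KO library in sub-cluster 1, at 0.776 (0.699 to 0.860). Hspa1b was lower in all 3, at 0.218, 0.355 and 0.593.

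**Figure D5:**
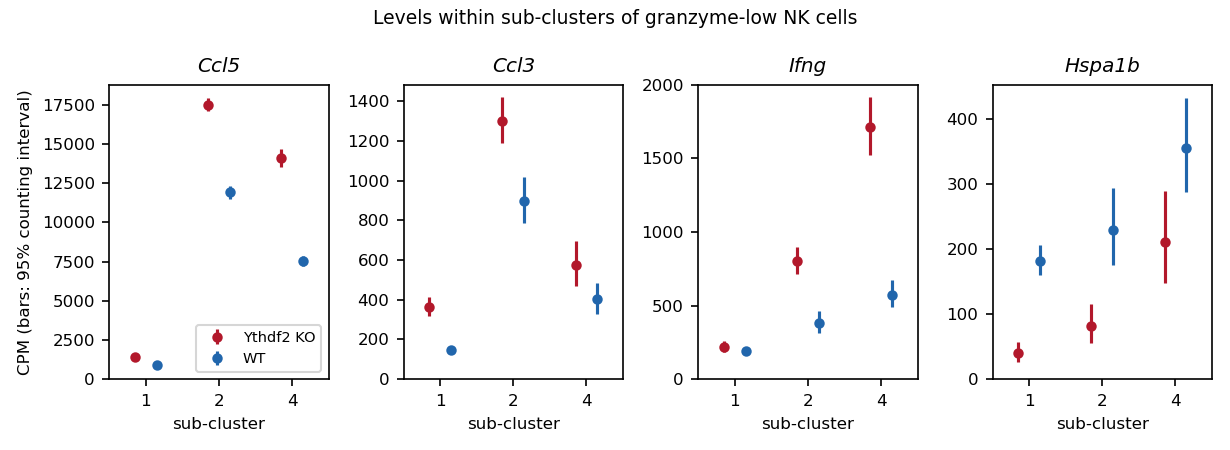
CPM (vertical axes from 0, bars are 95% counting intervals) of Ccl5, Ccl3, Ifng and Hspa1b in sub-clusters 1, 2 and 4 of granzyme-low NK cells, with Ythdf2 KO cells in red left of WT cells in blue. Ccl5 and Ccl3 are higher in Ythdf2 KO cells in all 3 sub-clusters, the Ifng intervals of sub-cluster 1 overlap, and Hspa1b is lower in Ythdf2 KO cells in all 3.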

How the data were processed

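Members and gene lists were chosen with earlier results of these data known. The authors deposited raw UMI counts per gene and barcode for 2 libraries of CD45+ cells; per the submitters' processing notes they used Cell Ranger 5.0.1, Seurat 4.0.4 and mm10, although per the file headers the version was 6.1.1, a difference that could not be settled. Counts were used as deposited. UMIs were summed per class and library and divided by the class total (CPM, per 1000000 UMIs). Kept barcodes held 133055191 UMIs in the Ythdf2 KO library and 168317001 in the WT library, and granzyme-low NK cells 1909123 and 3351942. Shares carry exact binomial intervals, sums exact Poisson intervals and ratios exact conditional ones (95%). With 1 library per genotype no test was run, and genes were called by fold: 1.5 between libraries and 2 in both libraries between classes, at 30 CPM or more; list members needed a mean of 10. B cells (3 or more B gene UMIs) and monocyte/macrophage barcodes (20 or more of the 6 genes per 10000) were taken as droplet background. Empty droplets were not examined. Named were the marker and rule genes, the 10 highest and 10 lowest ratios between libraries, the 12 highest and 12 lowest between classes, without mitochondrial, ribosomal, sex-linked, receptor variable and predicted genes, list members past the fold or highest in level, and genes leading sub-clusters; Nfkbia, Cdkn1b, S100a8, S100a9, H2-Ab1, H2-Eb1, Mcpt8 and Gzmn were named after their values were seen. Some genes that met this rule are not reported here. Of 321 listed genes 319 stood on exactly 1 row; Mx1 and Aldoa did not. Coordinates are those of GENCODE M21 (GRCm38). Clustering and doublet scores came from scanpy 1.11.5, with its Scrublet, and leidenalg 0.10.2; intervals came from scipy 1.17.1, tables from pandas 2.3.3 and numpy 2.4.6 and plots from matplotlib 3.10.9, in Python 3.11.15, and the scripts were tested on simulated data.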

Additional observations from a re-analysis of the deposited data

Results flagged for a closer look

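Apoe, a macrophage gene, had a granzyme-low over granzyme-rich ratio of 0.396 in the Ythdf2 KO library and 1.60 in the WT library, opposite directions in the only library of each genotype; the difference between them was not tested. Sub-cluster 3, with macrophage genes in front, held 39 of the granzyme-low cells of the Ythdf2 KO library and 72 of those of the WT library, and its part in this was not tested.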

How the results depend on the processing

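No paired analysis was possible because there is 1 library per genotype and no shared replicate number. The difference in share among kept barcodes, Ythdf2 KO minus WT (main -0.132 percentage points), was 0.212 with a granzyme limit of 2 per 10000, and that among NK cells (main 4.80) was 1.12 after thinning to 4000 UMIs. Genes past 1.5-fold higher between libraries (main 99) numbered 152 with the granzyme limit of 2, 2145 without a level limit and 25 at 100 CPM or more; lower ones (main 53) numbered 99, 1321 and 9, and 106 among barcodes of 4000 to 10000 UMIs. Genes past 2-fold higher between classes (main 76) numbered 48 under TMM scaling, 673 without a level limit and 35 at 100 CPM or more; lower ones (main 23) numbered 178 without a level limit, 6 at 100 or more and 43 by the mean over cells. Sub-clusters numbered 4 at resolution 0.3 and 11 at resolution 1, against 7. Among barcodes of 4000 to 10000 UMIs the ratio between libraries crossed 1 for Birc5 (1.89), Clspn (1.10), Cxcl3 (0.0629), G0s2 (0.801), Hist1h2ae (2.97), Hist1h3c (3.93), Mmp12 (2.36), Rrm2 (8.38), Stmn1 (1.36), Timp2 (0.967) and Tyms (1.05). Without sub-clusters 3, 6 and 7 it did for Ccr7 (2.13), Cxcl9 (0.106), Hmox1 (1.34), Mmp12 (2.74) and Timp2 (0.794). With macrophage genes under 3 per 10000 it did for Cxcl3 (0.0990) and G0s2 (0.856), without the highest Scrublet scores for Cxcl3 (0.924) and G0s2 (0.560), and with genes of other lineages under 10 per 10000 for Acod1 (0.385), G0s2 (0, no UMI in the Ythdf2 KO library) and Mmp12 (2.43). Retnlg, between classes, turned to 0.660 (Ythdf2 KO) and 0.485 (WT) with that last limit and to 0.504 (Ythdf2 KO) among barcodes of 4000 to 10000 UMIs. The cause was not tested in any of these. The settings on sub-clusters, on genes of other lineages and on 4000 to 10000 UMIs were chosen after seeing the data. Counts of genes past a fold rest on sums of very unequal depth and say nothing of spread between animals.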
